A study of Mus musculus with 2 samples.

Results

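Accessible chromatin was examined at 9 genes for proteins of the red cell surface, most of them carriers of blood group antigens: Rhag, Rhd, Kel, Ermap, Aqp1, Cd47, Icam4, Bcam and Gypc. They were taken by name from the 21853 protein-coding genes of the GENCODE M21 annotation of the mouse genome, build mm10 (GRCm38). The assay was ATAC-seq, in which the transposase Tn5 cuts open chromatin and tags it for sequencing. The cells were primary megakaryocyte-erythroid progenitors (MEP), the shared bone marrow precursors of the erythroid and platelet lineages, from male C57BL/6J mice of 5 to 6 weeks. There is 1 group, of 2 libraries from 50000 cells each, with no treatment or genetic change named. The labels number the libraries as biological replicates 1 and 2, but both point to a single donor entry, so separate animals are not stated, and the differences between them may be technical. Sequencers are named for replicate 1 and not for replicate 2.

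The red cell membrane is a lipid bilayer held to a spectrin skeleton by transmembrane proteins, and many blood group antigens sit on those proteins. Rhag, Rhd, Cd47 and Icam4 belong to a membrane complex around the Rh proteins, Gypc anchors the skeleton at its junctions, and Aqp1 passes water. GATA1, KLF1 and TAL1 are the transcription factors best known for driving erythroid genes, and they bind GATA sites, CACCC boxes and E-boxes.

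The promoter of a gene counted as accessible where a listed region overlapped the 1 kb to either side of any of its protein-coding transcription start sites (TSS). Distal regions were the other regions inside the gene, or with the summit no more than 50 kb from the most upstream start. A region at a protein-coding TSS of any gene was not counted as distal. Regions came from 3 kinds of deposited list: an IDR-thresholded list for each library (IDR, the irreproducible discovery rate, keeps peaks whose rank repeats between random splits of the library), a longer pseudoreplicated list for each library, and a conservative list of peaks that repeat between the libraries. After merging of overlapping peaks these held 26353 and 28142, 60668 and 63635, and 46200 regions. The fold of a region is the enrichment value the authors deposited for its strongest peak, read as a fold over local background, and the folds given per library for distal regions come from the pseudoreplicated lists. Folds were not scaled between the libraries, and the depth in reads is unknown. A region missing from a list does not show closed chromatin. No tests were run, because there is 1 group and genes or regions are not replicates.

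The MEP label was checked against marker genes. Of 10 progenitor markers, 8 had an accessible promoter in both IDR-thresholded lists, and Itga2b was among those that did not. Of 25 markers of granulocytes and macrophages, B cells, T and NK cells, mast cells and basophils, and endothelial and stromal cells, 2 had one in both lists. They were Pax5 (fold 9.62 in replicate 1 and 11.2 in replicate 2), at a start 6481 bp downstream of its first, and Col1a1 (6.23 and 6.40). In both pseudoreplicated lists 9 of the 10 and 4 of the 25 had one, beside 56.5% of all genes. Of the 5 endothelial and stromal markers 3 did: Col1a1, Tek (4.98 and 4.83) and Pdgfrb (4.04 and 4.73). By the longer lists the check thus does not set the MEP label apart from these cells.

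Most of these surface genes had an accessible promoter. In both IDR-thresholded lists the promoter was present for 7 of 9 members, where 45.7% of all protein-coding genes had one. In both pseudoreplicated lists it was present for 9 of 9, against 56.5% of all genes, and in the conservative list for 8 of 9, against 54.5%. Gypc was missing from the IDR-thresholded list of replicate 2, and Bcam from those of both libraries and from the conservative list.

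The promoter signals were modest in height. The median fold of the 7 was 5.61 in replicate 1 and 6.40 in replicate 2, below the medians of 8.39 and 8.83 over all genes with a promoter in both lists. When only regions in the upper 50% of each list by fold were kept, 1 of 9 members had a promoter in both, against 27.7% of all genes. It was that of Cd47, at its most upstream start. The deposited −log10 p of the promoter peaks ran from 9.41 and 6.81 at Bcam to 70.7 and 79.3 at Cd47, with Kel next at 65.4 and 60.8. By median height these promoters lay below the background, and by count above it. Single members differed: Cd47 (8.48 and 8.87) was above the median of all genes in both libraries, and Kel (8.49) in replicate 1.

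**Figure D1:**
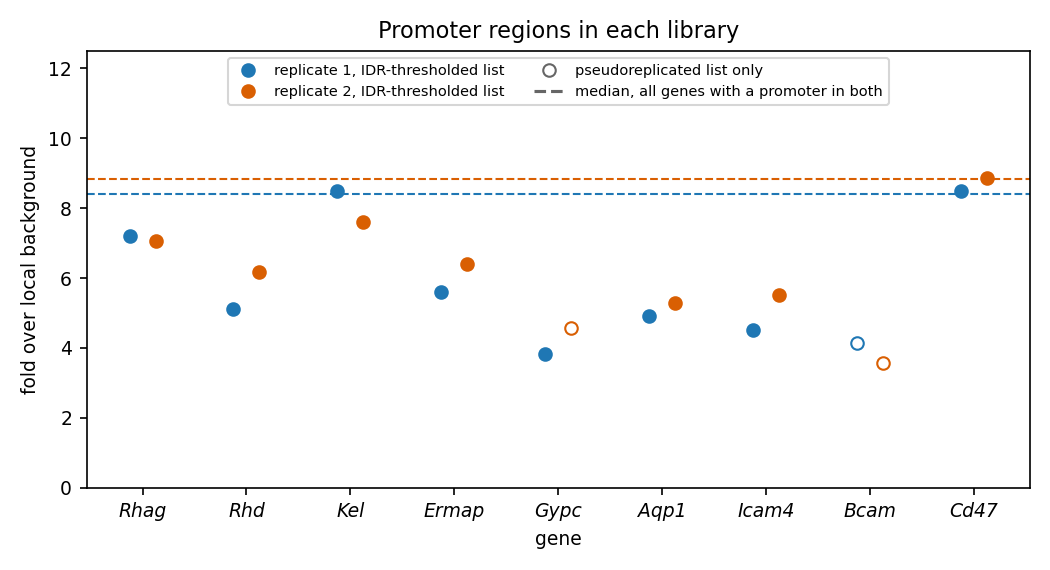
Fold of the strongest promoter region of each of the 9 members, as the authors deposited it, in replicate 1 and replicate 2, with regions found only in a pseudoreplicated list drawn open and dashed lines at the medians of all genes with a promoter in both lists (8.39 and 8.83). Cd47 (8.48 and 8.87) and Kel (8.49 and 7.61) are highest, and Bcam (4.13 and 3.58), found only in the pseudoreplicated lists, is lowest in replicate 2.

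The promoters were poor in CpG dinucleotides. Within 500 bp of the most upstream TSS, the ratio of observed to expected CpG had a median of 0.291 over the 9 members. The median was 0.561 over all genes, 0.740 over genes with a promoter in both IDR-thresholded lists, and 0.261 over the other genes. Rhag (0.0363) and Kel (0.0374) had fewer CpGs than nearly all genes, as 1.49% and 1.55% of genes lay lower. Gypc, at 0.712, was the only member above 0.5. Of the 8 members below 0.5, 7 had an accessible promoter in both lists, where 15.0% of all genes below that ratio did. That limit was chosen after the values were seen. The median folds of these low-CpG genes, 8.02 and 8.69, were again above those of the 7 members.

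At 4 promoters a GATA site lay close to the TSS: Rhag, Rhd, Kel and Ermap. The motif searched was AGATAA or TGATAA on either strand, in the 250 bp before the most upstream TSS, and 14.9% of all genes held it. A composite site, in which CTG is followed after 7 or 8 bases by the GATA site, was present at Kel and Ermap, 2 of 9 members, and at 0.673% of all genes. It contains a GATA site by construction and resembles the joint element described for TAL1 and GATA1. The core of the KLF motif, CACCC on either strand, was in 6 of 9 (Rhag, Rhd, Ermap, Aqp1, Bcam and Gypc), against 52.8% of all genes. The Bcam match, at bases 208 to 204 upstream, lies outside the promoter region listed for that gene. The other motifs were at few of these promoters. The E-boxes CAGCTG and CAGATG were in 1 of 9 (Gypc), against 23.2% of all genes, and the ETS site AGGAAG in 2 of 9 (Rhd and Aqp1), against 28.8%. Both shares lie below the background, but counts this small among 9 genes do not separate them from it. The RUNX site TGTGGT was in 2 of 9 (Rhag and Aqp1), against 12.8%, and the MARE core TGACTCA or TGAGTCA in 1 of 9 (Kel), against 3.92%. These are letter matches in a fixed window, and no binding was measured.

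The sequences of the 4 promoters with a GATA site are printed because the sites fall so near the start. Each run is the 250 bp before the most upstream TSS, 5′ to 3′ on the strand of the gene, from the RefSeq GRCm38.p6 assembly. Capitals mark the GATA site, or the whole composite site where there is one. Read against the TSS, the GATA site covers bases 8 to 3 upstream at Rhag, 43 to 38 at Rhd, 42 to 37 at Kel and 51 to 46 at Ermap. At Ermap the composite runs on the reverse strand from base 51 to base 35 and overlaps the KLF core match at bases 44 to 40. At Kel it covers bases 53 to 37.
Rhag promoter, chr17:40810876-40811125, + strand: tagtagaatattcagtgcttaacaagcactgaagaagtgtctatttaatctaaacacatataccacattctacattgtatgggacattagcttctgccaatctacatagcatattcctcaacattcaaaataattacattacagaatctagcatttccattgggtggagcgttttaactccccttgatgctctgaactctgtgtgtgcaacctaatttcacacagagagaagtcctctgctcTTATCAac
Rhd promoter, chr4:134864286-134864535, + strand: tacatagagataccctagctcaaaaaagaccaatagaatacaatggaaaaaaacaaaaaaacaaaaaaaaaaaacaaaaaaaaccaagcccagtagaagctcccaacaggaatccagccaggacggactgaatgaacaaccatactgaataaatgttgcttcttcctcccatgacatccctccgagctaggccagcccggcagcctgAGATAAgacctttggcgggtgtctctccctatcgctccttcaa
Kel promoter, chr6:41704340-41704589, - strand: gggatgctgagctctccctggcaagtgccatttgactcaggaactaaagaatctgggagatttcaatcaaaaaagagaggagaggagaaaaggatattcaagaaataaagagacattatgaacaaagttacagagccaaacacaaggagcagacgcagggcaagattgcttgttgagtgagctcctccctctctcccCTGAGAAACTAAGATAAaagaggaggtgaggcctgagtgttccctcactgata
Ermap promoter, chr4:119190012-119190261, - strand: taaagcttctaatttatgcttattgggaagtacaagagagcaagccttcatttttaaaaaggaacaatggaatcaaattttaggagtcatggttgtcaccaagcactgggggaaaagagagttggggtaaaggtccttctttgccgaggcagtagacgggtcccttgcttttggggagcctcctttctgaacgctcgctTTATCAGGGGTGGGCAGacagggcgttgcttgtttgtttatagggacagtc

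Rhag encodes the Rh-associated glycoprotein, which brings the Rh proteins to the membrane and carries ammonia or carbon dioxide. The gene (ENSMUSG00000023926.8) lies at chromosome 17, 40811126 to 40840754. Its promoter region, 40810879 to 40811284, was narrow at 406 bp, with its summit 19 bp before the TSS and the GATA site inside it. The fold was 7.19 in replicate 1 and 7.06 in replicate 2, so the libraries were close. In the list of each library 40.4% and 33.5% of promoter regions had a lower fold.

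Rhag had 7 distal regions. Region 2, 4.3 kb before the TSS in an intron of the neighbouring Crisp2 (chromosome 17, 40806467 to 40807474), had a fold of 10.3 in replicate 1 and 9.88 in replicate 2. That is above the promoter in both libraries, and by mean fold it was the second strongest of all distal regions of the members. Its summit sequence holds a composite site on the reverse strand, in capitals below, printed with 100 bp to either side of the summit from the + strand. Region 7, 44.1 kb downstream between genes (40855061 to 40855605), had folds of 7.59 and 10.2, higher in replicate 2, and a GATA site. The other 5 had folds of 3.92 to 6.67, and 4 of those 5 were introns of Rhag itself.
Rhag region 2, chr17:40806771-40806971: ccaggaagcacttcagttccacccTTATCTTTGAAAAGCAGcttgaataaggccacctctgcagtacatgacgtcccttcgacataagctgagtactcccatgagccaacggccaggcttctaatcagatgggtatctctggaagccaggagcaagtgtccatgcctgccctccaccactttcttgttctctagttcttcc

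Rhd encodes the single mouse Rh protein, counterpart of the human RhD and RhCE antigens. The gene (ENSMUSG00000028825.7) lies at chromosome 4, 134864536 to 134896172. The promoter region (134864353 to 134864688) was 336 bp wide with its summit 2 bp before the TSS, and had a fold of 5.11 in replicate 1 and 6.17 in replicate 2. A second region (134865413 to 134865720) also touched the TSS window, with its summit 1033 bp into the gene and folds of 4.68 and 4.66. Rhd had the fewest distal regions of the members, 2, both in its introns. The one 5.0 kb downstream (134869067 to 134869865) held 2 GATA sites and had folds of 5.19 and 7.74, and the one at 18.9 kb (134883339 to 134883629) had 6.26 and 6.40 with no GATA site. The first of these was thus clearly higher in replicate 2 and the other nearly equal.

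Kel encodes the Kell glycoprotein, a zinc endopeptidase that cleaves endothelin precursors and bears the Kell antigens. The gene (ENSMUSG00000029866.13) lies at chromosome 6, 41686330 to 41704339, on the - strand. Its promoter region (41704033 to 41704718) had folds of 8.49 in replicate 1 and 7.61 in replicate 2, the highest of the members in replicate 1 and second to Cd47 in replicate 2. Neither of the annotated starts 5171 bp and 16347 bp downstream had a region in any list examined. A weaker region 1191 bp inside the gene (41702883 to 41703493) passed the IDR threshold in replicate 2 only, and its pseudoreplicated folds were 4.06 and 3.89.

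The 5 distal regions of Kel all lay outside the gene. The strongest, in an intron of Trpv5 41.8 kb downstream (41662435 to 41662700), had folds of 9.31 and 9.91 and no GATA site. A region 2.1 kb before the TSS (41706214 to 41706787) had a GATA site and folds of 4.45 and 4.80, and the region 24.1 kb before it reached 6.85 and 8.40. The nearest protein-coding TSS was that of Kel for the 3 upstream regions and that of Trpv5 for both downstream ones.

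Ermap encodes the erythroid membrane-associated protein, an immunoglobulin superfamily member related to butyrophilins that carries the Scianna antigens. The gene (ENSMUSG00000028644.16) lies at chromosome 4, 119175457 to 119190011, on the - strand. The region at the first TSS (119189797 to 119190232) had folds of 5.61 in replicate 1 and 6.40 in replicate 2. A region 750 bp upstream (119190432 to 119191023) had 4.92 and 4.94, and a region at an alternative start 1264 bp downstream (119188215 to 119188774) had 4.29 and 4.87. Ermap was the only member with 3 separate regions at its starts, all in both IDR-thresholded lists. Its 5 distal regions lay 14.9 to 49.3 kb away, none inside the gene and none with the Ermap TSS as the nearest. The strongest, in an exon of AU022252 33.8 kb upstream, had folds of 6.58 and 9.05, and 1 of the 5 held a GATA site.

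Aqp1, the water channel of the red cell that bears the Colton antigens, had a weak promoter and many distal regions. The gene (ENSMUSG00000004655.5) lies at chromosome 6, 55336432 to 55348555. The promoter region (55335830 to 55336908) was the widest at a first TSS, at 1079 bp with 3 summits, and had a fold of 4.90 in replicate 1 and 5.30 in replicate 2. Only 9.22% and 10.7% of promoter regions of the libraries had a lower fold. It held KLF core matches and no GATA site in the 250 bp before the TSS.

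Around Aqp1 the conservative list held 12 distal regions, a number that 0.956% of all genes reached or passed, although the gene is only 12.1 kb long. A single region lay inside the gene, 5 lay upstream and the rest downstream, where the next gene is Ghrhr. For 7 of the 12 the nearest TSS was that of Aqp1. For the others, among them regions 9 and 10 described below, it was that of Ghrhr. Of the 12, 9 held a GATA site and 4 a composite site, out of 9 composite regions at all members. The composite regions differed in height. Region 4, 15.3 kb upstream, had folds of 4.27 and 4.19, and region 5, 12.4 kb upstream, had 4.64 and 5.43. Region 7, 19.8 kb downstream, had 4.0 and 5.06, and region 10, 34.6 kb downstream, had 4.18 and 6.69. Of the Aqp1 regions, region 10 differed most between the libraries, by a ratio of 1.60, and it was in the IDR-thresholded list of replicate 2 only. The strongest region, region 9 at 30.9 kb (55367062 to 55367563), had folds of 8.67 and 7.73 with a GATA site and no composite.

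The 4 composite regions of Aqp1 are printed to show that the element recurs with different spacers and in both orientations. Each run is the summit with 100 bp to either side, from the + strand. Capitals mark the whole composite and any further GATA site.
Aqp1 region 4, chr6:55321049-55321249: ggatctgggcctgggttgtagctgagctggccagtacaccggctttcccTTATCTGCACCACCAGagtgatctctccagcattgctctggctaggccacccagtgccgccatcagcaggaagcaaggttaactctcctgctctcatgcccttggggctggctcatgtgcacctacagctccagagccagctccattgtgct
Aqp1 region 5, chr6:55323958-55324158: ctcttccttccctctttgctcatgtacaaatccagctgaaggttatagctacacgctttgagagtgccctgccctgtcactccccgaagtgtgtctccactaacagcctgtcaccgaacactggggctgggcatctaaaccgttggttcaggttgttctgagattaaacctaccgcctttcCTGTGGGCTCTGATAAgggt
Aqp1 region 7, chr6:55356144-55356344: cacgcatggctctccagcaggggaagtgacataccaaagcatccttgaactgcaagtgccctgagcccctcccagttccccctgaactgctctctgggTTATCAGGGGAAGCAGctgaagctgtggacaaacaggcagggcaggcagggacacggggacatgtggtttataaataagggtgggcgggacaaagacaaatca
Aqp1 region 10, chr6:55370932-55371132: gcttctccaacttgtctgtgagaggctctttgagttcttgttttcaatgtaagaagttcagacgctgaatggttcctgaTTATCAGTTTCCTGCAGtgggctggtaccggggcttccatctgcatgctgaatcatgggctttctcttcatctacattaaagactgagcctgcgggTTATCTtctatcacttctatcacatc
In region 5 the composite stands on the + strand, and in the other 3 it stands on the reverse strand. Region 10 also has a separate GATA site.

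Cd47 is the integrin-associated protein that signals to macrophages through SIRPα not to engulf the cell. It had the strongest promoter in replicate 2, at its most upstream start, and the most distal regions. The gene (ENSMUSG00000055447.19) lies at chromosome 16, 49800533 to 49915010. The promoter region (49799633 to 49800611) had folds of 8.48 in replicate 1 and 8.87 in replicate 2, with its summit 298 bp before the TSS. A second region (49854876 to 49856113), 55.0 kb downstream, covered a cluster of 5 annotated starts, with folds of 4.19 and 4.65. The higher promoter fold, the CpG ratio, the gene length, the distances and the distal window of Cd47 all rest on the most upstream of its 7 annotated starts. The internal start at 66300 bp had no region in any list examined.

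Cd47 had 13 distal regions, a number reached by 0.718% of all genes. The gene is 114.5 kb long and 7 of the 13 lay in its introns, 4 of them beyond 50 kb from the first TSS, so 9 fell within 50 kb. For all 13 the nearest TSS was that of Cd47, and 11 held a GATA site. Region 9, in an intron at 39.4 kb (49839401 to 49840593), was the strongest of all distal regions of the members, with folds of 9.85 in replicate 1 and 11.4 in replicate 2. It holds a composite site, in capitals below, printed like the Aqp1 regions. Region 13, in an intron at 107.0 kb (49907342 to 49907722), had folds of 9.28 and 9.02, and region 7, in an intron at 7.0 kb (49807078 to 49807858), had 7.23 and 9.22. Both also hold a GATA site. The second composite region, region 5 at 23.4 kb upstream, was far lower at 4.41 and 4.15.
Cd47 region 9, chr16:49839786-49839986: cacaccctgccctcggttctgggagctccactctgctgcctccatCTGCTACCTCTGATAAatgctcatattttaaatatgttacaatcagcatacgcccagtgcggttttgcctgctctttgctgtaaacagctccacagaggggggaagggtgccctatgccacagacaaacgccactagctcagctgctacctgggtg

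Icam4 encodes the Landsteiner-Wiener glycoprotein, an adhesion molecule of red cells and erythroblasts. The gene (ENSMUSG00000001014.6) is short, 1.2 kb, at chromosome 9, 21029373 to 21030595, in a cluster with Icam1 and Icam5. The promoter region (21029210 to 21030014) had folds of 4.52 in replicate 1 and 5.52 in replicate 2, with the summit 179 bp inside the gene. Both are low among promoter regions, with 5.59% and 13.0% lying lower. Of its 3 distal regions, the one 22.4 kb downstream between genes (21051578 to 21052091) had folds of 8.82 and 11.0, the third strongest of the members, with no GATA site. The other 2 were weak, at 3.65 and 3.62 in an intron of Icam5 and at 3.83 and 4.80 in a region with a composite site 10.6 kb downstream. For none of the 3 was the Icam4 TSS the nearest.

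Bcam encodes the Lutheran glycoprotein, a laminin receptor that is also made outside the erythroid lineage. The gene (ENSMUSG00000002980.14) lies at chromosome 7, 19756131 to 19771016, on the - strand. Its promoter was found only in the pseudoreplicated lists, with folds of 4.13 in replicate 1 and 3.58 in replicate 2, and in the replicated list of both libraries (19770377 to 19770777, fold 4.25). These were among the lowest promoter folds of the members. The region in the replicated list had its summit 523 bp inside the gene, nearest the start 469 bp downstream of the first. It does not reach the 250 bp before the first TSS that were searched for motifs. Of the 6 distal regions none lay in the gene or had the Bcam TSS as the nearest. The strongest, in an intron of Nectin2 34.1 kb downstream (19736320 to 19737445), had folds of 7.16 and 8.42 and was the only one with a GATA site. It was also the only Bcam distal region in both IDR-thresholded lists.

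Gypc encodes glycophorin C, which ties the membrane to the skeleton through protein 4.1 and bears the Gerbich antigens. The gene (ENSMUSG00000090523.2) lies at chromosome 18, 32528322 to 32560034, on the - strand. Its promoter region (32559593 to 32560265) had a fold of 3.84 in replicate 1, where 1.59% of promoter regions lay lower, and 4.57 in the pseudoreplicated list of replicate 2. The promoter was thus weak in both libraries, and the lower value is the one that passed its IDR threshold. No region was listed at the start 24616 bp downstream. All 6 distal regions had Gypc as the nearest TSS, and 5 were in its introns. The strongest, in the intron 17.4 kb downstream (32542063 to 32543439), was 1377 bp wide with folds of 7.72 and 8.04, 2 GATA sites and a composite site.

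**Figure D2:**
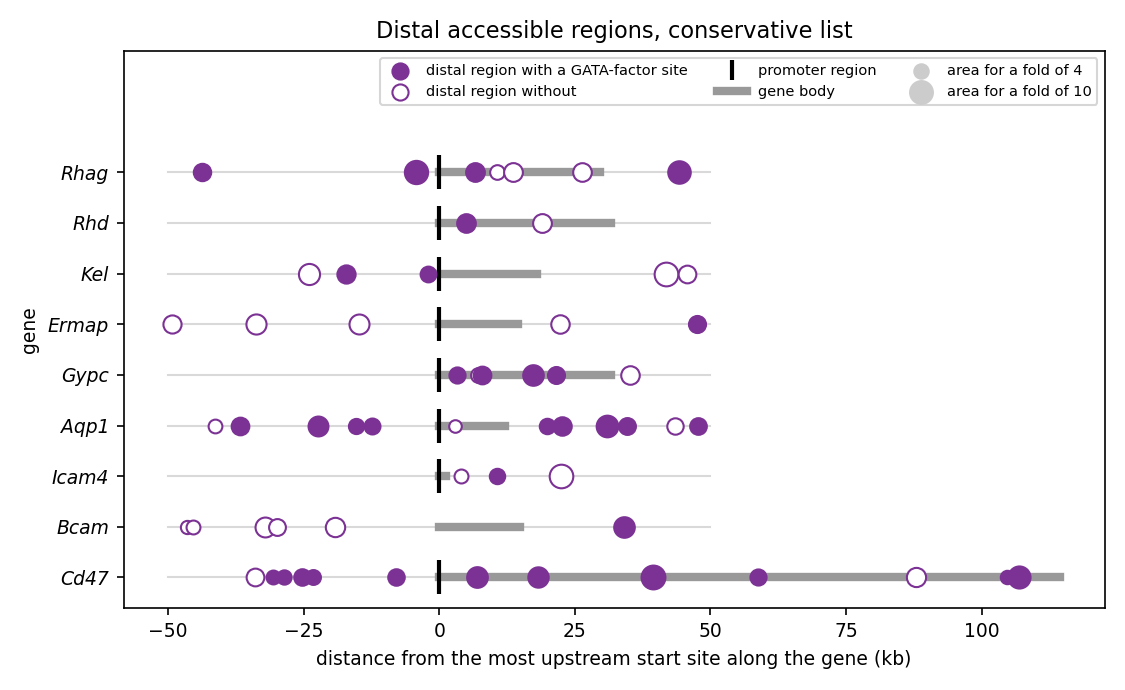
Position of the distal regions of each member as distance in kb from its most upstream TSS, with upstream negative, filled marks for regions with a GATA site, mark area for fold, a tick for a promoter region and a grey bar for the gene. Bcam has no tick. The 12 regions of Aqp1 spread to both sides of a 12.1 kb gene, and 7 of the 13 regions of Cd47 lie within its 114.5 kb.

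Together the members had 59 distal regions, 6.56 per gene with a median of 6.00, against a mean of 2.63 and a median of 2.00 over all genes. At least 1 distal region was present at 9 of 9, against 74.0% of all genes, and at least 5 at 7 of 9, against 20.0%. Rhd (2) and Icam4 (3) were the exceptions, with numbers that 58.9% and 43.2% of all genes reached. Kel and Ermap had 5 each, Bcam and Gypc 6 each. Of the 59, 33 lay in introns, 23 between genes and 3 in exons. Only 19 were inside the member itself, for 36 its TSS was the nearest, and for the other 23 the start of another gene was closer.

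**Figure D3:**
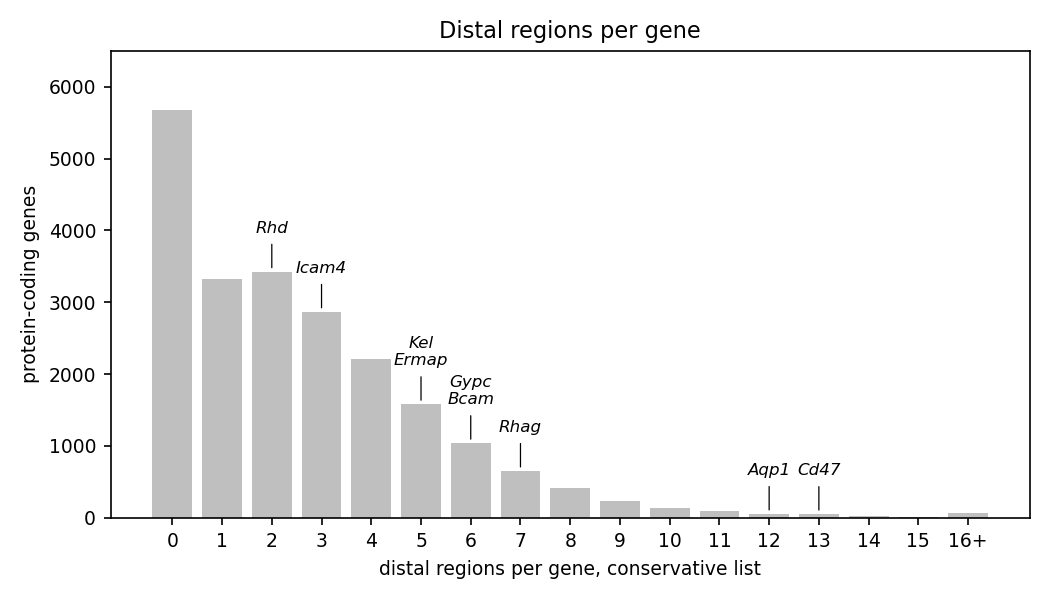
Number of distal regions per gene over all 21853 protein-coding genes, on a linear axis with 16 or more pooled, and the 9 members marked at their own numbers. Cd47 (13) and Aqp1 (12) stand far to the right of the median of 2.00, and Rhd (2) sits on it.

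The distal regions of the members passed the IDR threshold in both libraries somewhat more often than distal regions at large. In both IDR-thresholded lists there were 31 of 59, or 52.5% (Wilson 95% interval 40.0 to 64.7, counting error only), against 38.9% of all 32778 distal regions of the conservative list. A further 17 were in 1 of these lists and 11 in neither. All 59 were in both pseudoreplicated lists, against 90.9% of all distal regions. Starting from each library's own list, 31 of the 36 distal regions of replicate 1 were found in replicate 2 (86.1%, 71.3 to 93.9), near the 81.4% of all its distal regions. In the other direction 31 of 44 were found (70.5%, 55.8 to 81.8), near the 73.6% of all. Counted from the lists of the libraries, the intervals thus include the background.

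By height the distal regions of the members were ordinary. Their median fold in the conservative list was 6.03, from 3.05 to 10.9, against 6.36 over all distal regions, and their median width was 471 bp against 472 bp. Replicate 2 had the higher fold in 45 of 59, and the ratio of replicate 2 to replicate 1 ran from 0.830 to 1.61. Across the 59 regions, which share libraries and caller, the folds had a Pearson correlation of 0.88 and a Spearman correlation of 0.87. At each of the 8 members with both kinds of region in the conservative list, the strongest distal region was above the promoter, where this held for 50.9% of 10696 such genes. The strongest is picked from more regions at the members, 6.56 per gene against 2.63 over all genes, and their promoter folds were lower. This count is therefore not independent of those results. The gap was widest for Icam4 (10.7 against 5.19) and narrowest for Rhd (6.76 against 6.00).

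**Figure D4:**
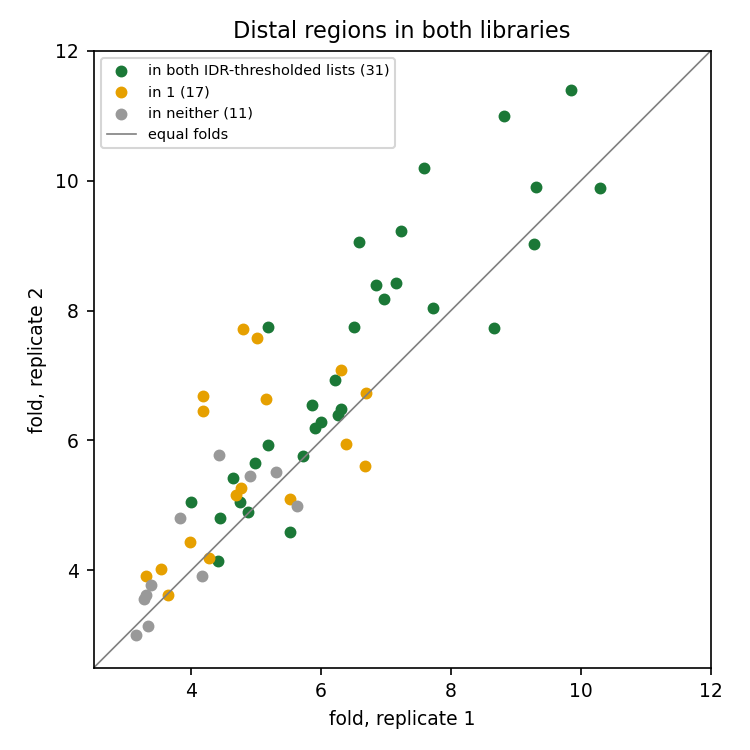
Fold of each of the 59 distal regions in replicate 1 (x axis) and replicate 2 (y axis), coloured by presence in both IDR-thresholded lists (31), 1 (17) or neither (11), with the line of equal folds. In 45 of 59 replicate 2 is higher, and the highest point is Cd47 region 9 (9.85 and 11.4).

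GATA sites lay furthest above the background in percentage points among the motifs searched in the distal regions, and most were at Aqp1 and Cd47. Within 100 bp to either side of the summit, 34 of 59 regions held AGATAA or TGATAA on either strand. That is 57.6% (Wilson 44.9 to 69.4, counting error only, not a test), against 42.4% of all distal regions. Cd47 had 11 of 13 and Aqp1 9 of 12, while the other 7 members together had 14 of 34, or 41.2%, at the background. This split was made after the values were seen. The composite was in 9 of 59 (15.3%, 8.24 to 26.5), against 8.33% of all, which its interval includes. With only 50 bp to either side the GATA share was 35.6% against 30.0%, and with the longer site AGATAAG or TGATAAG it was 30.5% against 21.6%.

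The other motifs lay closer to the background, each searched on both strands in the same window. The E-boxes CAGCTG and CAGATG were in 19 regions (32.2% against 32.9%), and the KLF core CACCC in 31 (52.5% against 47.1%). The RUNX site TGTGGT was in 18 (30.5% against 21.5%), and the ETS site AGGAAG in 20 (33.9% against 27.1%). The MARE core TGACTCA or TGAGTCA, bound by NFE2, was in 5 (8.47% against 5.63%). The intervals of all 5 shares include the background, but they cover counting error only and are not tests.

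Other blood group and red cell surface genes gave a broader frame. Of 34 taken by name, 18 had an accessible promoter in both IDR-thresholded lists, or 52.9% against the 45.7% of all genes, and their mean number of distal regions was 4.0 with a median of 3.00. Median promoter folds of the 18 were 6.43 and 7.05, again below those of all genes. With only the upper 50% of regions by fold, 6 of 34 had one, a share below the 27.7% of all genes. Highest was Cd99l2, a relative of Cd99, at 12.1 in replicate 1 and 12.7 in replicate 2. Pigg, of the Emm antigen, had 10.3 and 11.0.

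Complement regulators were among the 18 as well: Cr1l at 9.01 and 9.39, Cd55 at 8.41 and 8.39, and Cd59a at 6.50 and 6.98. Prnp had 9.17 and 9.49 at a window shared with a start of Prn. The transporters Abcb6 (6.51 and 7.14), Slc14a1, the urea transporter of the Kidd antigens (6.36 and 6.60), and Abcg2 (5.23 and 5.07) had lower folds. So did Slc29a1 (5.31 and 4.97) and Abcc4 (5.02 and 4.94), although Abcc4 had 17 distal regions, more than any of the 9 members. Some of these regions lay at an internal start, 18788 bp downstream of the first at Slc14a1 and 56037 bp at Abcg2. Art4, Ackr1, Bsg, Cd44, Cd151 and Smim1 had folds between 4.74 and 7.71.

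In both pseudoreplicated lists 23 of the 34 had a promoter, or 67.6% against 56.5% of all genes. In 9 of the 34 no promoter region was in either pseudoreplicated list. The share of all genes in neither was not counted, so this number is not shown to be high or low. Those 9 were Slc4a1, the anion exchanger band 3 that is a main protein of the mature red cell, Sema7a, Emp3, and the glycosyltransferase genes Abo, Fut1, Fut2, B4galnt2, A4galt and Gbgt1. Grouped after the values were seen, the 8 glycosyltransferases of the list, which build carbohydrate antigens, had no promoter in both IDR-thresholded lists. Of the other 26, 18 did, beside 45.7% of all genes, and this split was not tested. Gcnt2 was the only glycosyltransferase with a promoter in both pseudoreplicated lists (6.12 and 7.42).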

How the data were processed

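The members, gene lists, motifs and rules were chosen with earlier results of these data known. The authors deposited peak lists on mm10 with read-me texts, per the file headers. The aligner and peak caller were not given in the sources used here. In these lists the authors' ratio column holds a fold per peak, and their deposited −log10 p column its significance, which grows with depth. Depth is unknown, and no interval rests on it.

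Overlapping or touching peaks were merged into regions carrying the summit and fold of the strongest peak. Per-library folds of a conservative region come from the strongest peak of that library with its summit inside. Overlap counted from 1 bp. Intervals are Wilson 95% intervals. They treat regions as independent although regions share genes and libraries, so they may be too narrow and serve as description only. Code (Python 3.11.15, pandas 2.3.3, numpy 2.4.6, scipy 1.17.1) was tested on simulated data.

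Named were all members with their promoters, the 8 strongest distal regions and those with a composite site, other blood group genes with a promoter in both libraries or in neither pseudoreplicated list, and relatives with a promoter in both. Some listed genes are not reported here by name. Other regions and genes were named after their values were seen. No test was planned or run. Alternatives changed the list, window, overlap, height, motif and library.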

Additional observations from a re-analysis of the deposited data

How the results depend on the processing

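Every alternative below was planned. With the upper 50% of regions by fold, members with a promoter in both libraries fell from 7 to 1 and those of the other blood group genes from 18 to 6. With either library alone the counts were 7 to 8 and 19 to 20, and the other settings gave 7 to 9 and 18 to 23. The 59 distal regions became 92 with the replicated list, 92 with a window of 100 kb, 36 with a window of 25 kb, 24 with the upper 50% by fold, and 36 (without replicate 2) to 44 (without replicate 1) in a single library. In each the mean per member, 2.67 to 10.2, stayed above the mean of all genes in that setting. The share of distal regions found in both libraries, 77.5% summed over both directions, was 90.6% with the pseudoreplicated lists. The GATA share of 57.6% was 35.6% within 50 bp of the summit and 30.5% for the longer site with a trailing G. It was 59.1% to 63.9% in a single library, and above that of all distal regions in every setting run. A promoter call says nothing of its height, a window says nothing of which gene a region serves, and a list of peaks without reads does not give the precision of any fold.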

Other observations

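A list of 17 genes was taken as relatives of the members. It also holds Sirpa, a partner of Cd47, and the tissues that express these genes were not examined. Of the 17, 4 had a promoter in both IDR-thresholded lists, or 23.5% beside 45.7% of all genes, a difference that was not tested. The 4 were Alcam, an adhesion molecule (fold 11.0 in replicate 1 and 11.1 in replicate 2), Btn2a2, a butyrophilin (8.65 and 11.2), Ece1, an endothelin-converting enzyme of the family of Kel (7.49 and 7.07), and Icam5 (3.84 and 4.50), which lies next to Icam4. In both pseudoreplicated lists 8 of the 17 had one, or 47.1% beside 56.5% of all genes. The mean number of distal regions of the 17 was 3.47. Highest were Btn1a1 with 13 and Btn2a2 with 11, near the 13 of Cd47 and the 12 of Aqp1. Of the Rh relatives, Rhbg was in the IDR-thresholded list of replicate 2 only (6.07), and Rhcg was only in the pseudoreplicated lists (3.87 and 5.88). Aqp2, Aqp4, Aqp5 and Aqp6 had no promoter region in any of the per-library lists, unlike Aqp1.

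The windows of the members also held 12 regions at starts of other genes, which were not counted as distal. Icam4 had 4 of them, at Fdx1l, Icam1, Icam5 and Mrpl4, and Ermap had 3. Gypc, Aqp1 and Cd47 had 0.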
